A study of Mus musculus with 6 samples.

Results

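The signals and receptors that drive red cell formation under stress were examined in the spleens of garlic-fed mice. The genes were Epor, Jak2, Stat5a, Stat5b, Kit, Kitl, Bmp4, Bmpr1a, Smad5 and Gdf15, chosen by name, and every probe set that the array annotation gave to one of them alone was kept. A probe set is a group of short oligonucleotides on the array that reads 1 mRNA. This gave 23 probe sets of 9 genes, of 45037 probe sets and 18193 genes with a name of their own in all. The annotation named no probe set for Gdf15, a secreted factor of the TGF-β family released by maturing erythroblasts, and it was not analysed here. Spleen RNA came from 3 garlic-fed mice, on a diet with 4% lyophilized raw garlic powder, and from 3 control mice, on the same diet with 4% cellulose in its place. All were male C57BL/6J mice that began the diet at 8 weeks of age and were killed after 15 weeks on it, and each spleen was read on 1 Affymetrix array. Whole spleen was used, so that fewer cells of a type and less of an mRNA per cell cannot be told apart in any value below.

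In the adult mouse, red cells are made mainly in the bone marrow, and the spleen takes up this work when the demand rises. Erythropoietin, made by the kidney, binds its receptor on erythroid progenitors, the kinase Jak2 attached to the receptor phosphorylates Stat5a and Stat5b, and these move to the nucleus and switch on genes of survival and growth. Stem cell factor, the product of Kitl in stromal cells, acts through the receptor kinase Kit on progenitors at earlier stages. In the mouse spleen, Bmp4 acts through receptors such as Bmpr1a and the signal carrier Smad5 to set off the expansion of stress erythroid progenitors.

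The values were MAS5 signals, a linear measure of brightness, with a trimmed mean of 500 on each array and a median of 119.7 to 128.8 in garlic-fed and 127.9 to 132.2 in control mice. All 5 B cell and all 5 T cell markers with a probe set, and 11 of 12 red pulp macrophage markers, passed the filter on dim probe sets. So did all 11 pancreatic and 5 of 7 fat tissue markers with a probe set, so that passing it does not single out spleen tissue. Pancreatic digestive enzymes, which do not belong to the spleen, gave 0.00611%, 0.102% and 0.00671% of the summed signal in garlic-fed mice 1, 2 and 3, and 0.397%, 0.0526% and 0.186% in control mice 1, 2 and 3. Fat tissue markers gave 0.0592%, 0.0611% and 0.0264% in garlic-fed mice 1, 2 and 3, and 0.0314%, 0.0336% and 0.033% in control mice 1, 2 and 3. The part of fat tissue in the results was not tested.

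Among the 9 genes, Epor alone had a signal higher in each garlic-fed mouse than in any control mouse, and no gene passed the test over all probe sets. Of 22 probe sets that could be tested, none passed an adjusted p of 0.05 from limma, against 0.237% of all probe sets, of which 0.226% were higher and 0.0111% lower in garlic-fed mice. None met the study's fold mark of 1.8 together with an unadjusted p under 0.05, here the p from limma and not that of the study's own test, while 1.52% of all probe sets did, 0.921% as higher and 0.596% as lower. With the study's own test none of the 22 met it either, and 175 of all probe sets were higher and 56 lower on log2 signals, and 154 and 64 on linear signals. When single arrays were left out, Epor met it without control mouse 2, Kitl 1426152_a_at without control mouse 3, and both without garlic-fed mouse 1. At an unadjusted p under 0.05, 2 were higher, of Epor and of Kitl, and none was lower, against 5.58% and 5.44% of all probe sets. The groups did not overlap for 1 probe set higher in garlic-fed mice, of Epor, and 1 lower, of Stat5a, against 7.52% and 9.29% of all probe sets. The split of these counts depended on the scaling. At an unadjusted p, 1507 of all probe sets were higher and 1471 lower, while centring every array on its median gave 2248 and 710. Without overlap 2033 lay above and 2511 below, and 3125 and 1352 after centring, while the fold mark with limma gave 249 and 161, and 349 and 121 after centring. Of the 22, 10 had a positive and 12 a negative log2 ratio of garlic-fed to control mice (the log2 fold change), with a median of -0.05 beside -0.03 for all 27022 probe sets, and of 0.03 beside 0.04 after centring.

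**Figure D1:**
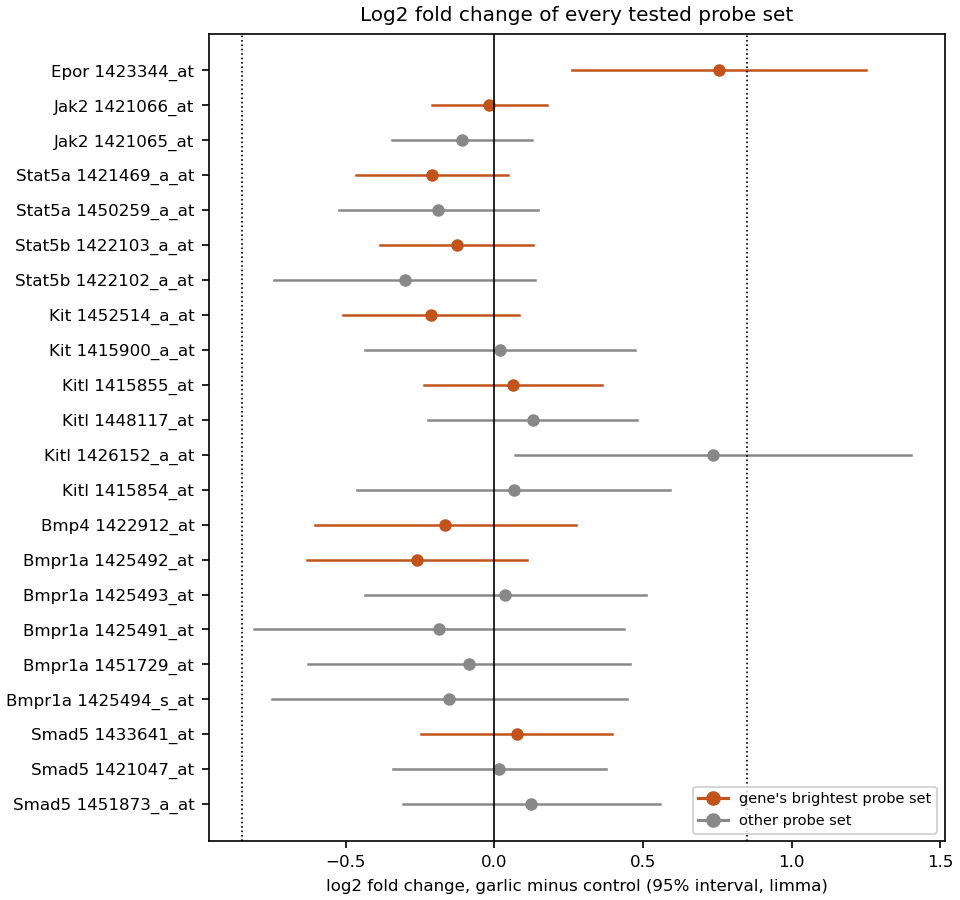
Log2 fold change (garlic minus control) of the 22 tested probe sets of the 9 genes, with 95% intervals from limma (n = 3 each). Orange marks the brightest probe set of a gene, gray its other probe sets and dotted lines a 1.8-fold change; the intervals of Epor 1423344_at and Kitl 1426152_a_at alone lie above 0, and neither passed the adjusted test.

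Epor, the erythropoietin receptor, showed the largest difference among the brightest probe sets of the 9 genes. The signal of its single probe set (1423344_at) was 774, 828 and 1228 in garlic-fed mice, against 414, 714 and 555 in control mice. Garlic-fed mouse 3 was the highest and control mouse 1 the lowest of the 6, and the gap between the groups, from 774 to 714, was smaller than the spread inside either of them. The means were 943 ± 248 in garlic-fed and 561 ± 150 in control mice (SD, n = 3 each), a 1.69-fold difference. On the log2 scale it was 0.75 with a standard error of 0.22 and a 95% interval of 0.26 to 1.25, and limma gave an adjusted p of 0.226 over 27022 probe sets (unadjusted p = 0.00674). The log2 ratio was 0.55 without control mouse 1 and also without garlic-fed mouse 3, and 0.95 without control mouse 2.

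The stretch of DNA just before the start of the Epor gene is shown because Epor is a gene of erythroid cells and these letters are where erythroid factors could be looked for, with the same stretch of Kit, a receptor whose brightest probe set differed in the opposite direction, beside it. The sequences are the 250 bases upstream of the annotated start in RefSeq (mouse build GRCm38.p6), given 5′ to 3′ on the strand of the gene, Epor at chr9:21963577-21963826 on the minus strand and Kit at chr5:75574737-75574986 on the plus strand. Capitals mark matches on either strand to GATAA (the GATA factor motif), CACCC (the motif of Klf factors), GGGCGG (the Sp1 motif) and TTCNNNGAA (the Stat motif), and no match overlaps another in these stretches.
Epor: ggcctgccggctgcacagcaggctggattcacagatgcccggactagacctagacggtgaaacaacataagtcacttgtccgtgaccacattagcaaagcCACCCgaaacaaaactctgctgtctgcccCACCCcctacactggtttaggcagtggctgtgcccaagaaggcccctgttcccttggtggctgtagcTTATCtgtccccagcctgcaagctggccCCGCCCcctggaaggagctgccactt
Kit: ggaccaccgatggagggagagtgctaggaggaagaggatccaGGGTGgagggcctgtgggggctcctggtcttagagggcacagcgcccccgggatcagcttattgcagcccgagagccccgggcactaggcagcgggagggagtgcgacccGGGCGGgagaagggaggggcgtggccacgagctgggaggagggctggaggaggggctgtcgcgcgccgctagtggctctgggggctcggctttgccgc

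The Epor stretch held 1 GATAA match, on the reverse strand and beginning 54 bases before the start, 2 CACCC matches and 1 GGGCGG match. Among the 10 genes the GATAA letters were present in this window in Epor alone, and 23% of 27025 promoters of the same length held them. CACCC was present in 6 of the 10 genes and in 51.3% of all promoters, GGGCGG in 8 of the 10 and in 32.9%, and the Stat letters in none of the 10 and in 7.18%. These are matches of letters and do not show that a factor is bound.

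Genes that mark erythroid precursors were higher in garlic-fed mice as well. Of 22 such markers, 18 had a probe set and 17 were bright enough to be tested. The list was chosen with earlier results of these data known. The study had already reported Klf1, Gata1, Kel and others of them as raised in garlic-fed spleens. The counts below, set beside the shares of all probe sets, are therefore a description and no independent support. All 17 had a positive log2 ratio, beside 43.5% of all probe sets, with a median of 1.04. By adjusted p from limma 5 of them were higher in garlic-fed mice and none was lower, beside 0.226% and 0.0111% of all probe sets. By unadjusted p 16 were higher, beside 5.58%. The count of 5 was 9 after centring and 1 without the array of highest pancreatic signal of each group, and it was 0 without control mouse 1 or control mouse 2, where 16 were again higher by unadjusted p. It was also 0 with dim probe sets kept in, without the trend of variance and with both forms of the study's own test, where 13 to 16 were higher by unadjusted p, and it was 16 with the replicate number as a block. Their mean log2 signal, relative to the control mean, was 0.76, 0.92 and 1.37 in garlic-fed mice 1, 2 and 3, against -0.31, 0.02 and 0.29 in control mice 1, 2 and 3. Epor on the same scale was 0.50, 0.60 and 1.17 in the garlic-fed mice, against -0.40, 0.38 and 0.02 in the control mice. Both were highest in garlic-fed mouse 3 and lowest in control mouse 1. Among the control mice, however, Epor was highest in mouse 2 and the mean of the markers in mouse 3. Of the 17 markers, 14 had a larger log2 ratio than Epor. The summed signal of these markers was 78705 to 114048 in garlic-fed and 46096 to 61838 in control mice. The 1 probe set of the marker Hba-a1 (alpha-globin) alone read 8.7 to 100.1 on the 6 arrays, had a mean below the filter and was not tested. Probe sets shared by several genes were not used, and how well this probe set reads alpha-globin mRNA was not tested. The part of these markers in the Epor result was not tested.

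**Figure D2:**
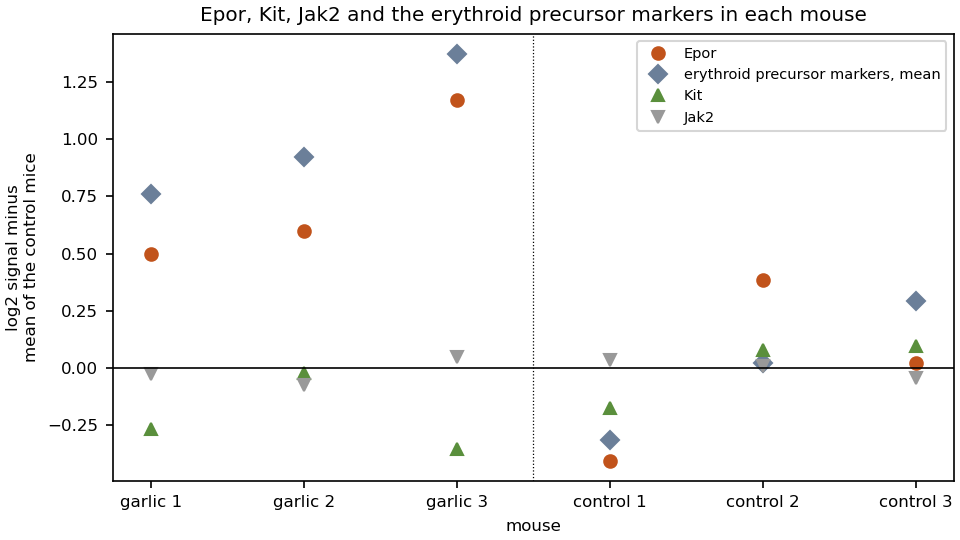
Log2 signal of Epor, of Kit and Jak2 (brightest probe sets) and the mean of 17 erythroid precursor markers in each mouse, minus the mean of the 3 control mice. Epor lies at 0.50 or above in the 3 garlic-fed and at 0.38 or below in the 3 control mice, the erythroid markers at 0.76 or above and at 0.29 or below, while Kit and Jak2 lie between -0.35 and 0.10 in all 6 mice.

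Downstream of the receptor, no probe set of the kinase or its 2 transcription factors passed the test. Jak2, which phosphorylates Stat5, had signals of 2256, 2179 and 2374 in garlic-fed mice, against 2354, 2309 and 2225 in control mice with its brightest probe set (1421066_at). The groups overlapped, the ratio of garlic-fed to control was 0.988, and its 95% interval of 0.864 to 1.13 was the narrowest among the 9 genes' brightest probe sets. The other Jak2 probe set (1421065_at) had a log2 ratio of -0.11 (adjusted p = 0.773).

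Stat5a, 1 of the 2 closely related factors that carry the signal into the nucleus, had signals of 622, 707 and 698 in garlic-fed mice, against 809, 768 and 765 in control mice (1421469_a_at). Every garlic-fed mouse lay below every control mouse, with a log2 ratio of -0.21 (SE 0.11, adjusted p = 0.553 from limma), and this separation was lost after centring. Stat5a was lower at an unadjusted p under 0.05 in the study's own test, on log2 and on linear signals, but not after adjustment (adjusted p = 0.473 and 0.475). The same held for limma with dim probe sets kept in (unadjusted p = 0.0207, adjusted p = 0.451). Its second probe set (1450259_a_at) read 407, 420 and 503 in garlic-fed mice, against 457, 581 and 481 in control mice, so that the groups overlapped, with a log2 ratio of -0.19 (adjusted p = 0.709). Stat5b had signals of 1290, 1234 and 1260 in garlic-fed mice, against 1596, 1273 and 1285 in control mice (1422103_a_at). Control mouse 1 alone stood apart, and the log2 ratio was -0.13 with all mice and -0.02 without that mouse. It was -0.0049 without control mouse 1 and garlic-fed mouse 2, the array of highest pancreatic signal of each group, a setting chosen after seeing the data. The dimmer Stat5b probe set (1422102_a_at) had a log2 ratio of -0.30 with an adjusted p of 0.636. It was -0.12 without garlic-fed mouse 2 and -0.53 without garlic-fed mouse 3, where limma gave an unadjusted p of 0.00585 and an adjusted p of 0.172. All 4 Stat5 probe sets were thus negative and none passed, and whether the probe sets of one Stat5 gene also read the mRNA of the other was not tested.

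**Figure D3:**
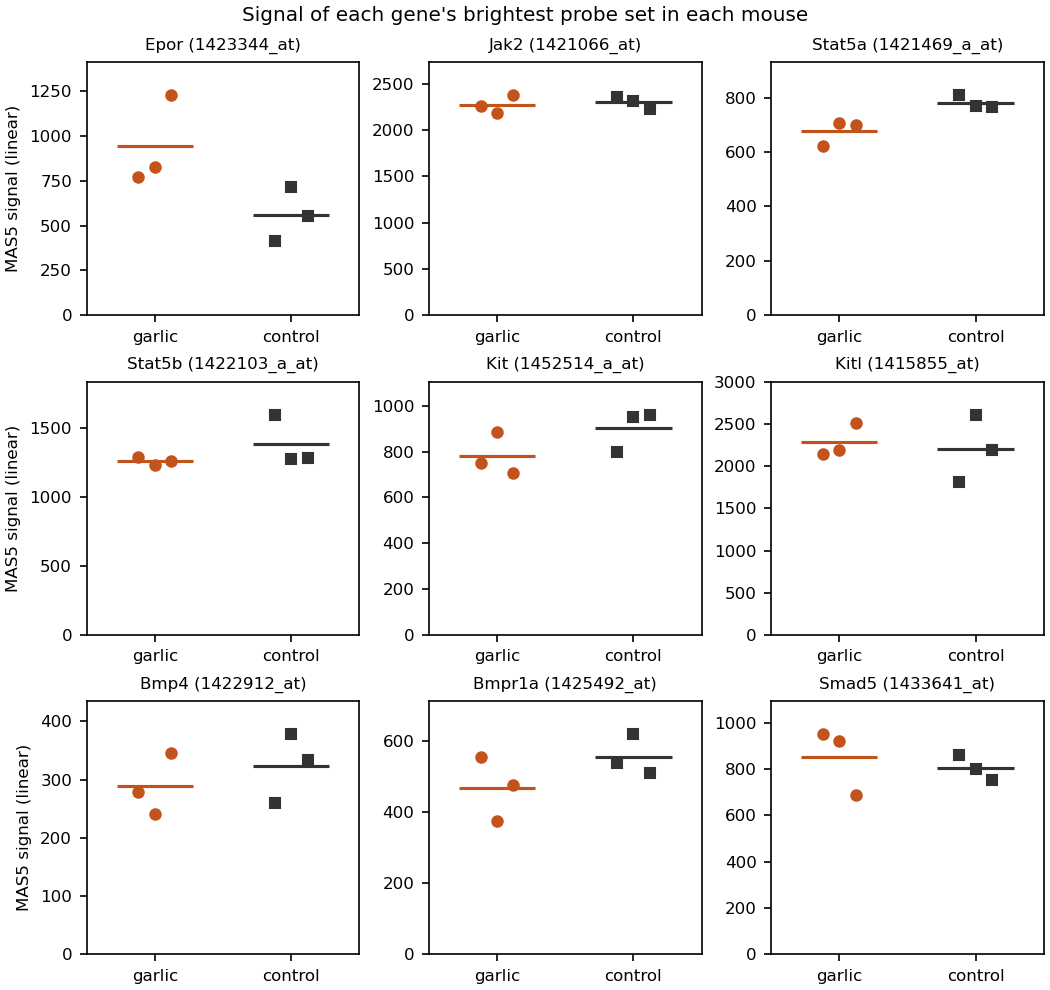
MAS5 signal of the brightest probe set of each of the 9 genes in the 3 garlic-fed (orange circles) and 3 control mice (black squares), with the group means as bars; every axis starts at 0. The groups separate for Epor, higher in garlic-fed mice, and for Stat5a, lower, and overlap in the other 7 panels.

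The pair of stem cell factor and its receptor showed no common direction. Kit, the receptor, had signals of 748, 887 and 705 in garlic-fed mice, against 796, 951 and 961 in control mice (1452514_a_at). The means were 780 ± 95.4 in garlic-fed and 902 ± 92.2 in control mice (SD, n = 3 each), the groups overlapped, and the log2 ratio was -0.21 with a standard error of 0.13 (adjusted p = 0.618 from limma). The 95% interval ran from 0.703- to 1.06-fold. Without control mouse 1 and garlic-fed mouse 2, the same setting, limma gave a log2 ratio of -0.40 with an adjusted p of 0.836 (unadjusted p = 0.0274). A second Kit probe set (1415900_a_at) was dimmer, with 179, 139 and 195 in garlic-fed and 174, 172 and 157 in control mice, and a log2 ratio of 0.02. Kit is also carried by mast cells, and of 8 mast cell and basophil markers with a probe set, 6 (Cpa3, Mcpt8, Fcer1a, Ms4a2, Tpsb2 and Tpsab1) were dim. The summed signal of the other 2, Hdc and Cma1, was 149.3 to 274.4 in garlic-fed and 167.1 to 209.5 in control mice.

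Kitl, the ligand of Kit, was read by 4 probe sets that gave different sizes of difference. The brightest (1415855_at) read 2153, 2196 and 2517 in garlic-fed mice, against 1819, 2615 and 2200 in control mice. The garlic-fed values lay within the range of the control mice, and the log2 ratio was 0.06 (SE 0.13, adjusted p = 0.911 from limma). A dim probe set (1426152_a_at) read 135, 147 and 202 in garlic-fed mice, against 76.4, 79.9 and 142 in control mice. Control mouse 3 overlapped with the garlic-fed mice, and the log2 ratio of 0.73 (SE 0.30, adjusted p = 0.407) was 1.02 without control mouse 3 and 0.56 without garlic-fed mouse 3. The other 2 probe sets had log2 ratios of 0.13 (1448117_at) and 0.06 (1415854_at). All 4 were positive with all mice, 2 of them (1415855_at and 1415854_at) turned negative when some arrays were left out, and the 3 other than 1426152_a_at had adjusted p of 0.834 to 0.952. Of 13 markers of stroma and endothelium, where Kitl is made, 12 were tested and none passed at an unadjusted p under 0.05, with a median log2 ratio of -0.05, and of 0.03 after centring.

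In the Bmp4 branch, too, no probe set passed the test, at any of its 3 levels. Bmp4, the ligand, had signals of 278, 241 and 346 in garlic-fed mice, against 259, 378 and 334 in control mice (1422912_at). The groups overlapped, and the fold was 0.892 with a 95% interval of 0.658 to 1.21 (adjusted p = 0.825 from limma). The log2 ratio of Bmp4 was -0.17 with all mice, -0.05 without control mouse 2 and -0.32 without control mouse 1. Bmpr1a, a type I receptor for Bmp4, had 6 probe sets, of which 1 (1445413_at) was at 2.3 to 5.7 on all arrays, below the floor of 23.5, and was not tested. The brightest (1425492_at) read 554, 374 and 476 in garlic-fed mice, against 538, 619 and 510 in control mice. Garlic-fed mouse 2 was the lowest, and the log2 ratio of -0.26 (adjusted p = 0.627) was -0.11 without it and -0.13 without the 2 arrays of most pancreatic signal. A dimmer probe set of opposite sign (1425493_at) read 129, 142 and 149 in garlic-fed mice, against 148, 145 and 118 in control mice, which overlapped. The other 3 Bmpr1a probe sets had log2 ratios of -0.19, -0.09 and -0.15. Smad5, which carries the signal of Bmp receptors to the nucleus, had signals of 951, 924 and 688 in garlic-fed mice, against 860, 800 and 753 in control mice (1433641_at). Garlic-fed mouse 3 was the lowest of the 6 and garlic-fed mouse 1 the highest, and the 3 Smad5 probe sets had log2 ratios of 0.02 to 0.12 (adjusted p = 0.872 to 0.984).

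Among the partners of the erythropoietin receptor inside the cell, 22 of 27 listed genes were tested, and none passed the adjusted test. At an unadjusted p under 0.05, 5 were higher and 2 lower, beside 5.58% and 5.44% of all probe sets. The median log2 ratio was 0.03, and 0.11 after centring. Foxo3, a transcription factor that erythropoietin signaling holds outside the nucleus, had signals of 2232, 3083 and 3083 in garlic-fed mice, against 1891, 1734 and 2022 in control mice. Its log2 ratio was 0.56 (adjusted p = 0.141 from limma). Over the alternative settings its adjusted p ran from 0.0387, without garlic-fed mouse 1, to 0.782. Irs2, a docking protein, had a log2 ratio of 0.50 (adjusted p = 0.407). Both genes lay higher in every garlic-fed mouse than in any control mouse, as did 7.52% of all probe sets. Socs3, a feedback inhibitor that Stat factors induce, had signals of 806, 1244 and 1173 in garlic-fed mice, against 1765, 1392 and 1461 in control mice, a log2 ratio of -0.54 (adjusted p = 0.258). Sh2b3, an adaptor protein that damps Jak2, had one of -0.37 (adjusted p = 0.309). Garlic-fed mice lay below control mice without overlap in both, as in 9.29% of all probe sets. The gene of erythropoietin itself was not analysed here.

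Of 11 listed targets of erythropoietin and Stat5, 10 were tested. This list, too, was chosen with earlier results of these data known, and the study had already reported Tfrc as raised in garlic-fed spleens. At an unadjusted p under 0.05 from limma, 2 of the 10 were higher, beside 5.58% of all probe sets, and none was lower. All 10 had a positive log2 ratio, beside 43.5% of all probe sets, and 1 of them rose past the adjusted threshold, beside 0.226%. The median was 0.17, and it was 0.25 after centring and 0.11 without control mouse 1, and the lowest, of Trib3 and Osm, were 0.0043 and 0.01. Tfrc, the transferrin receptor through which erythroblasts take up iron, rose to 8635, 9451 and 11313 in garlic-fed mice, against 4136, 5205 and 5298 in control mice, 2.01-fold with a 95% interval of 1.66 to 2.43 (adjusted p = 0.0186 from limma). It is also abundant in erythroid precursors, and the values of the erythroid markers above apply to it as they do to Epor. Tfrc no longer passed without control mouse 1 (adjusted p = 0.0861) or control mouse 2 (0.0797), with dim probe sets kept in (0.298), without the trend of variance (0.255), with the test of the study's methods on log2 signals (0.392) and linear signals (0.408), and without the 2 arrays of most pancreatic signal (0.0739). Ccnd3, cyclin D3, which sets the number of divisions of erythroid precursors, had a log2 ratio of 0.55 (adjusted p = 0.0767 from limma). Over the alternative settings its adjusted p ran from 0.0222, with the replicate number as a block, to 0.579. Its garlic-fed values lay above the control values without overlap, as in 7.52% of all probe sets.

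In the wider Bmp and Smad pathway, 20 of 28 listed genes were tested and none passed the adjusted test. By an unadjusted p under 0.05, 1 was higher and 3 were lower, beside 5.58% and 5.44% of all probe sets. The median log2 ratio was -0.05, and 0.03 after centring. Smad6, an inhibitor that Bmp signaling itself induces, had signals of 121, 73.8 and 100 in garlic-fed mice, against 183, 147 and 141 in control mice, a log2 ratio of -0.69 (adjusted p = 0.354 from limma). It was -0.38 without the 2 arrays of most pancreatic signal. Id3, a common Bmp target, had a log2 ratio of -0.26 (adjusted p = 0.433), and Smurf2, a ubiquitin ligase of the pathway, one of 0.25 (adjusted p = 0.402). Bmp7, a related ligand, was dim, with 30.9, 80 and 35.5 in garlic-fed mice, against 147, 68.1 and 116 in control mice. Its log2 ratio was -1.24 (adjusted p = 0.333), and -0.52 with the floor at the 40th percentile. The 6 mice stood in the same order in Bmp7 as in the pancreatic markers, whose summed signal was 2074, 35014 and 2295 in garlic-fed mice 1, 2 and 3, against 136851, 17753 and 63798 in control mice 1, 2 and 3. The part of these markers in the Bmp7 result was not tested.

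Of the genes around Kit and of early progenitors, 14 were tested and none passed the adjusted test. By an unadjusted p under 0.05, none was higher and 2 were lower, beside 5.58% and 5.44% of all probe sets. The median log2 ratio was -0.07. After centring 2 were higher and 1 was lower, with a median of 0.00. The 2 lower genes before centring were Sh2b2, an adaptor of receptor kinases (log2 ratio -0.57, adjusted p = 0.338 from limma), and Flt3, a receptor of multipotent and lymphoid progenitors (-0.27, adjusted p = 0.440). Garlic-fed mice lay below control mice in both without overlap, as in 9.29% of all probe sets. Of 16 tested genes of other signals linked to stress erythropoiesis, such as the glucocorticoid, hypoxia and hedgehog pathways, none passed the adjusted test. By an unadjusted p under 0.05, 1 was lower, beside 5.44% of all probe sets, and the median log2 ratio was -0.02. After centring none was higher or lower, and the median was 0.06. That gene was Hif1a, a hypoxia-inducible factor, with 4939, 5061 and 5273 in garlic-fed mice, against 5716, 5972 and 6074 in control mice (log2 ratio -0.22, adjusted p = 0.305 from limma).

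**Figure D4:**
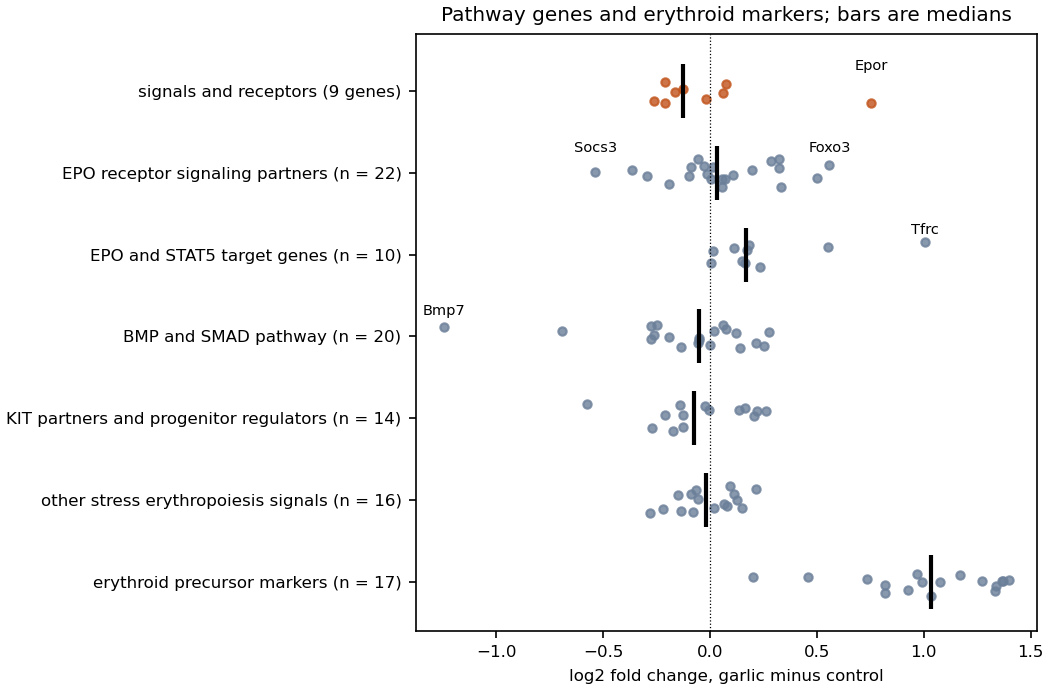
Log2 fold change (garlic minus control) of the 9 genes (brightest probe set), of 5 lists of pathway genes and of 17 erythroid precursor markers; points are genes, spread vertically only for legibility, and bars are medians. The erythroid markers center on 1.04, while the median of the 9 genes is -0.13 and the medians of the pathway lists lie between -0.07 and 0.17.

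The tested genes whose pattern over the 6 arrays was most like that of Epor were sought by the root-mean-square difference of log2 signals, each gene centred on its own mean. Among 12261 genes these were Plek2 (0.0852), Prkar2b (0.087), Spire1 (0.0922), Tlcd4 (0.0935) and Eif4e (0.0967). All were lowest in control mouse 1 and highest in garlic-fed mouse 3, as Epor was, which follows from how they were picked. The genes nearest to Kit were Lima1 (0.0203), Ramp1 (0.0288), Mrpl1 (0.0372), Amer1 (0.0374) and Adam11 (0.044). No gene is common to both sets, which were picked to match patterns that differ.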

How the data were processed

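The authors deposited 1 intensity per probe set and array, a linear MAS5 signal, with the MAS5 version and scaling not given in the sources used here. MAS5 computes each array on its own and subtracts mismatch signal, which leaves dim values noisy. The 64 control probe sets were left out. The array annotation gave 34945 probe sets 1 gene name. A floor of 23.5 (the 20th percentile) was set before log2 was taken, and a probe set was tested where its mean log2 signal was above 6.08 (the 40th percentile). The groups were compared, garlic minus control, with limma 3.58.1 in R 4.3.3 (eBayes, trend = TRUE, a variance that depends on the signal), and p-values were adjusted over 27022 probe sets by the Benjamini-Hochberg method. The procedure was run on simulated data with independent noise in every probe set and array. Those data hold no difference shared by the probe sets of an array, so they cannot test the dependence on scaling or on single arrays. The number of arrays limits the precision.

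In lists, a gene was represented by its brightest probe set. Named are all members, and in each pathway list up to 4 genes with the largest change at an unadjusted p under 0.05. Of 104 pathway and 99 marker genes, 96 and 85 had a probe set. The members and lists were chosen with earlier results of these data known. The methods' ANOVA and other settings were tried as alternatives. Plots were made in Python 3.11.15 (matplotlib 3.10.9).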

Additional observations from a re-analysis of the deposited data

How the results depend on the processing

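No member probe set passed the adjusted threshold in any of the 17 alternatives tried, and Epor kept its direction in all of them, with log2 fold changes of 0.55 to 0.95, adjusted p of 0.0942 to 0.836, and an unadjusted p under 0.05 in 15. The exceptions were both forms of the methods' ANOVA, with log2 and with linear signals. The number of member probe sets at an unadjusted p under 0.05 was 1 with the filter at the 60th percentile, 1 with either ANOVA (Stat5a 1421469_a_at, lower, and none higher), and 1 to 3 without single arrays. Over all probe sets, the 64 adjusted calls (61 higher and 3 lower) became 151 with arrays centred on their median (147 and 4), 11 without the filter (4 and 7), 28 without the 2 arrays of most pancreatic signal (2 and 26, chosen after seeing the data), 62 without garlic-fed mouse 2 (28 and 34), and 0 to 114 without single arrays, with 0 without control mouse 1 (1084 higher and 845 lower at an unadjusted p) or control mouse 2 (1258 and 1015). They became 0 without the trend of variance (1338 and 1474), with the ANOVA on log2 signals (1201 and 1347) and with that on linear signals (1136 and 1380). With the replicate number as a block there were 295. Over all tested probe sets mice of 1 number did not deviate together (correlations 0.000642, -0.176 and 0.0781), and 1 of the 3 garlic-fed mice correlated best with its own number. The mean of the erythroid markers, however, rose from mouse 1 to mouse 3 in both groups. It was 0.76, 0.92 and 1.37 in garlic-fed and -0.31, 0.02 and 0.29 in control mice, relative to the control mean. The causes were not tested.

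Of the 22 member probe sets, 12 kept their sign in every alternative, as did the 13 named pathway genes. The other 10 changed it in at least 1. Jak2 1421066_at was 0.0609 with arrays centred and 0.0302 without the 2 arrays of most pancreatic signal. In that setting Kitl 1415855_at was -0.0428, Kitl 1415854_at -0.0311, Bmpr1a 1425491_at 0.0875, Bmpr1a 1425494_s_at 0.0526 and Smad5 1421047_at -0.105. Without single arrays, Jak2 1421066_at was -0.0499 to 0.012, Kit 1415900_a_at -0.0852 to 0.159, Kitl 1415855_at -0.0709 to 0.191, Kitl 1415854_at -0.0273 to 0.231, Bmpr1a 1425493_at -0.0693 to 0.0966, Bmpr1a 1425491_at -0.462 to 0.0338, Bmpr1a 1451729_at -0.222 to 0.0764, Smad5 1433641_at -0.0107 to 0.223 and Smad5 1421047_at -0.053 to 0.0947.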
